A study of Mus musculus with 3 samples.

Results

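Expression of 9 interferon response genes was examined in the mouse retina at postnatal day 12: Ifit1, Ifit3, Isg15, Irf7, Bst2, Usp18, Ifi44, Rsad2 and Oasl2. Their probes were found by the RefSeq accession that the scanner files give for each spot, which yielded 10 probes for the 9 genes, 2 of them for Isg15, among 55681 probes and 21366 named genes. Total RNA from dissected retinas had been amplified, labelled with the dye Cy3 and hybridised to 1-colour Agilent arrays. There was 1 array labelled Otx2 KI, 1 labelled Crx KO and 1 wild-type (WT) array, all at postnatal day 12. KI is the usual short form for knock-in and KO for knockout. The labels give neither the locus of the Otx2 KI, nor the changed exons of Crx, nor the strain, sex or number of mice behind an array. With 1 array per genotype no difference below has a replicate check, and the design allows neither a test nor a p-value.

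The 3 arrays lay on 1 slide and held 59305 non-control spots each, of which 63.5% to 67.1% were well above background by the scanner software. Values are given as scaled signal, the Cy3 intensity of a probe after each array was divided by its 75th percentile and put on the WT array's scale. The ± beside a value is the error estimated by the scanner software for that spot, which covers the measurement and not the spread between mice. Crx, which encodes a homeodomain activator of photoreceptor genes, gave 1062 units on the Otx2 KI array, 7177 on the Crx KO array and 9790 on the WT array. Its signal was thus far below WT on the array labelled Otx2 KI (log2 difference -3.20) and closer to WT on the array labelled Crx KO (-0.45). Otx2, which encodes a related factor upstream of Crx, gave 63860 units on the Otx2 KI array, 62981 on the Crx KO array and 40887 on the WT array. Where these probes lie relative to the changed alleles is not known, so their signals do not check the labels, and the arrays are named here as labelled. All 8 rod, 8 bipolar and 8 Muller glia markers examined were well above background on all 3 arrays.

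Type I interferons bind a receptor on nearly every cell type and signal through the kinases Jak1 and Tyk2 to a transcription factor complex that includes Stat2 and Irf9. This complex binds the interferon-stimulated response element in promoters and turns on genes whose products restrict viruses and prepare a cell for infection. In the retina, resident microglia sense damage and can make and answer interferon, and many cell types keep a low basal level of these genes.

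Promoter sequences were available for 8 of the 9 genes in the RefSeq annotation of GRCm38.p6, as windows of 250 bases before to 50 bases after the annotated start. The core of the interferon-stimulated response element was searched as GAAA, any 2 bases and GAAA again, on both strands, and the gamma-activated site, an element known from genes that answer interferon gamma, as TTCNNNGAA, which reads the same on both strands. The response element core was found in 5 of the 8 windows (62.5%), against 3.44% of all 32851 windows of the same length. It was found in 33.3% of 51 windows of other type I interferon-stimulated genes and in 12.5% of 8 windows of microglial genes. The gamma-activated site was found in 1 of the 8 windows, that of Bst2, where it overlapped a response element core, against 8.3% of all windows. Printed here are Isg15 and Bst2, whose cores overlap each other, Ifit3, whose cores lie on the opposite strand, and Irf7, whose window holds neither motif. Capitals mark the bases of response element cores.
Isg15 promoter, chr4:156200769-156201068, minus strand: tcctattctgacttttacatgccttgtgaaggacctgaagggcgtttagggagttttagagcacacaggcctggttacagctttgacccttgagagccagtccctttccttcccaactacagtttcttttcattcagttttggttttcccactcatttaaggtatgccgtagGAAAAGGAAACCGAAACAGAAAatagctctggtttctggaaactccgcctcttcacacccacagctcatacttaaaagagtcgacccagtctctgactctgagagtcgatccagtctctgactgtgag
Bst2 promoter, chr8:71537423-71537722, minus strand: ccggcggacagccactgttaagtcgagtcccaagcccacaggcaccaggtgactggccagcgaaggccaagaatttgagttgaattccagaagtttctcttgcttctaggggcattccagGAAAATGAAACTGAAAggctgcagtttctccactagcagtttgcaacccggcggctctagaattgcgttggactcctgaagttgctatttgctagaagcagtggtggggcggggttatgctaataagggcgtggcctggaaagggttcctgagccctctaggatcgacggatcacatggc
Ifit3 promoter, chr19:34583279-34583578, plus strand: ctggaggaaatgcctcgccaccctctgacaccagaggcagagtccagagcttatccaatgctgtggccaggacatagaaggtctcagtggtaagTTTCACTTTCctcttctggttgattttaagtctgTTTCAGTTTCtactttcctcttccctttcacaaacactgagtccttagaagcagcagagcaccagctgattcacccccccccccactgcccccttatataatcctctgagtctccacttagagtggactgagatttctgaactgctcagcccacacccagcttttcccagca
Irf7 promoter, chr7:141266375-141266674, minus strand: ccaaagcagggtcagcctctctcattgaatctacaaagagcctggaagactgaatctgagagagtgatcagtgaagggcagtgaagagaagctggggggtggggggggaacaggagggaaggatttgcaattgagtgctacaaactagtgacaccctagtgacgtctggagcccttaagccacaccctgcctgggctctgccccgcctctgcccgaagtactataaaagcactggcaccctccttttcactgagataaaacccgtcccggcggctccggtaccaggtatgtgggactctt
Isg15 held 3 overlapping cores that began 78, 72 and 66 bases before the start. Bst2 held 2, beginning 130 and 124 bases before it. Ifit3 held 2 at 156 and 122 bases, Ifit1 held 2 at 104 and 85 bases, and Rsad2 held 1 at 120 bases before the start. Neither motif was present as spelled in the windows of Irf7, Ifi44 and Oasl2. A match describes letters in a window and not a bound site.

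**Figure D1:**
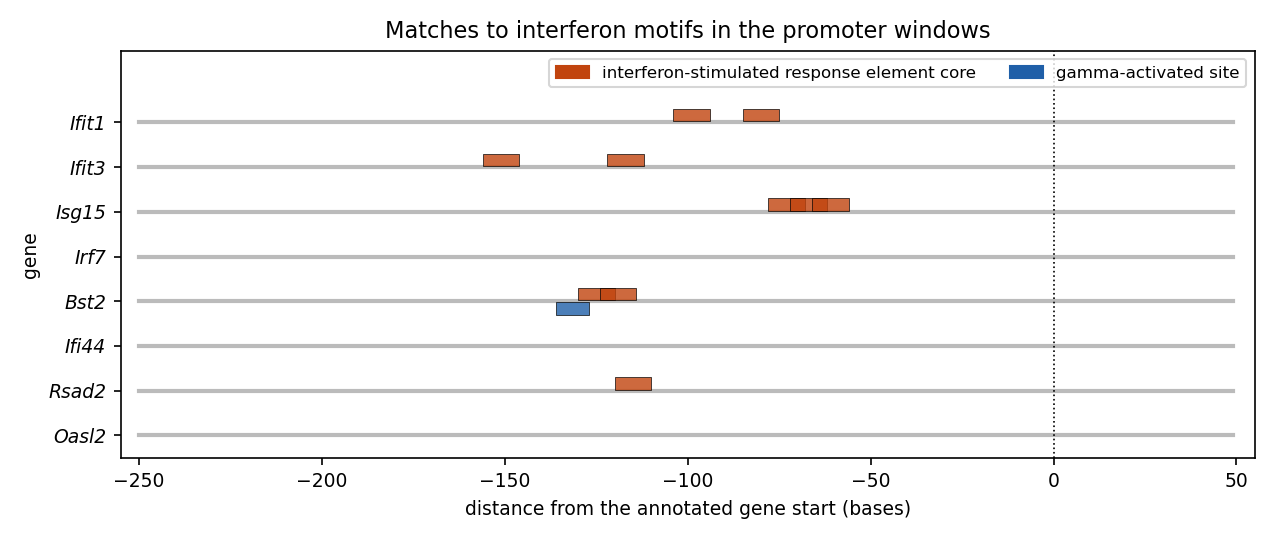
Positions of motif matches in the promoter windows of 8 interferon response genes, in bases from the annotated start, with response element cores above each line and the gamma-activated site below it. The 5 genes with a core carry it between 156 and 57 bases before the start, and the windows of Irf7, Ifi44 and Oasl2 carry no match.

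Irf7, the transcription factor that amplifies type I interferon production, was lower on both mutant arrays than on the WT array. Its probe gave 30.7 ± 4.02 units on the Otx2 KI array and 36.3 ± 4.19 on the Crx KO array, against 93.2 ± 9.56 on the WT array. The Otx2 KI array was lower than the WT array by 1.60 on the log2 scale (log2 difference -1.60 ± 0.24), a 3.04-fold difference. The Crx KO array was 2.57-fold lower than the WT array (-1.36 ± 0.22). The mutant arrays differed from each other by less than the error of their difference (-0.24 ± 0.25, Otx2 KI minus Crx KO). Both mutant comparisons use the same single WT array. Before background subtraction the Irf7 spot read 68 units on the Otx2 KI array, 70.5 on the Crx KO array and 135 on the WT array, over local backgrounds of 48, 36.5 and 51 units in the same order.

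The ubiquitin-like modifier Isg15 and the protease Usp18, which removes Isg15 from proteins and damps signalling at the interferon receptor, were both lowest on the Crx KO array. Isg15 gave 391 ± 39.3 units on the Otx2 KI array, 275 ± 27.6 on the Crx KO array and 401 ± 40.1 on the WT array. The Crx KO signal was 1.46-fold below WT (log2 difference -0.54 ± 0.20), and the Otx2 KI signal lay at the WT level within error (-0.03 ± 0.20). The second Isg15 probe gave 27.8 units on the Otx2 KI array, 7.70 units and not well above background on the Crx KO array, and 21.8 units on the WT array. On that probe Crx KO was at least 2.20-fold lower than WT, a larger difference than on the first probe. An at-least fold takes the dim array at the higher of the probe's own signal and the lowest signal of any probe well above background there, which was 12.4 units on the Otx2 KI array, 9.94 on the Crx KO array and 10.2 on the WT array. Usp18 gave 52.1 ± 6.16 units on the Otx2 KI array, 18.8 ± 3.18 on the Crx KO array and 48.9 ± 5.59 on the WT array. Usp18 was 2.60-fold lower in Crx KO than in WT (-1.38 ± 0.29), and its Otx2 KI signal was 2.77-fold above the Crx KO signal (1.47 ± 0.30). Its Otx2 KI and WT signals did not separate beyond error (0.09 ± 0.24). The Usp18 spot read 75.5 units on the Otx2 KI array, 49 on the Crx KO array and 75 on the WT array before subtraction of backgrounds of 41 to 42 units, so the Crx KO signal stood only just above its surroundings.

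Bst2 and Oasl2 were lowest on the Crx KO array and level between the Otx2 KI and WT arrays. Bst2 encodes tetherin, a membrane protein that holds budding virus particles at the cell surface, and Oasl2 encodes a relative of the oligoadenylate synthetases that sense double-stranded RNA. Bst2 gave 255 ± 25.7 units on the Otx2 KI array, 141 ± 14.3 on the Crx KO array and 273 ± 27.4 on the WT array. It was 1.94-fold lower in Crx KO than in WT (-0.95 ± 0.21), short of the 2-fold size used for calls, and its Otx2 KI signal was 1.81-fold above the Crx KO signal (0.85 ± 0.21). Oasl2 gave 371 ± 37.2 units on the Otx2 KI array, 217 ± 21.8 on the Crx KO array and 410 ± 41.1 on the WT array. Its differences were of similar size, 1.89-fold lower in Crx KO than in WT (-0.92 ± 0.20) and 1.71-fold higher in Otx2 KI relative to Crx KO (0.78 ± 0.20). For both genes the Otx2 KI signal lay at the WT level within error, with differences of -0.10 ± 0.21 for Bst2 and -0.14 ± 0.20 for Oasl2.

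Rsad2 encodes viperin, a radical-SAM enzyme that makes a chain-terminating nucleotide, and Ifi44 encodes an interferon-induced protein of the cytoplasm. Both were close to background and lowest on the Crx KO array. Rsad2 gave 26.5 ± 4.21 units on the Otx2 KI array, 15.8 ± 3.02 on the Crx KO array and 23.3 ± 3.56 on the WT array. The differences were -0.56 ± 0.35 for Crx KO minus WT, 0.75 ± 0.36 for Otx2 KI minus Crx KO and 0.19 ± 0.32 for Otx2 KI minus WT, so none exceeded its error by a wide margin. Ifi44 gave 28.1 ± 3.90 units on the Otx2 KI array and 18.1 ± 2.86 on the WT array, and its 11.0 ± 2.48 units on the Crx KO array were not well above background. Crx KO was therefore at least 1.65-fold lower than WT, and Otx2 KI at least 2.57-fold higher than Crx KO. Ifi44 was also the member furthest above WT in Otx2 KI, 1.55-fold (0.64 ± 0.30).

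Of the Ifit family, which includes binders of viral RNA, Ifit3 was level and Ifit1 too dim to be ordered. Ifit3 gave 130 ± 13.3 units on the Otx2 KI array, 143 ± 14.4 on the Crx KO array and 132 ± 13.4 on the WT array. Its 3 differences were -0.02 ± 0.21 for Otx2 KI minus WT, 0.11 ± 0.21 for Crx KO minus WT and -0.13 ± 0.21 for Otx2 KI minus Crx KO, all smaller than their errors. Whether its probe tells Ifit3 from its near-identical neighbour Ifit3b was not tested. Ifit1 was not well above background on any array, with 12.5 ± 2.87 units on the Otx2 KI array, 2.20 ± 2.04 on the Crx KO array and 9.18 ± 2.33 on the WT array, so no fold is given for it. Its spot read 47 units on the Otx2 KI array, 38 on the Crx KO array and 42.5 on the WT array, at the level of the surrounding background of 40 to 45 units.

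**Figure D2:**
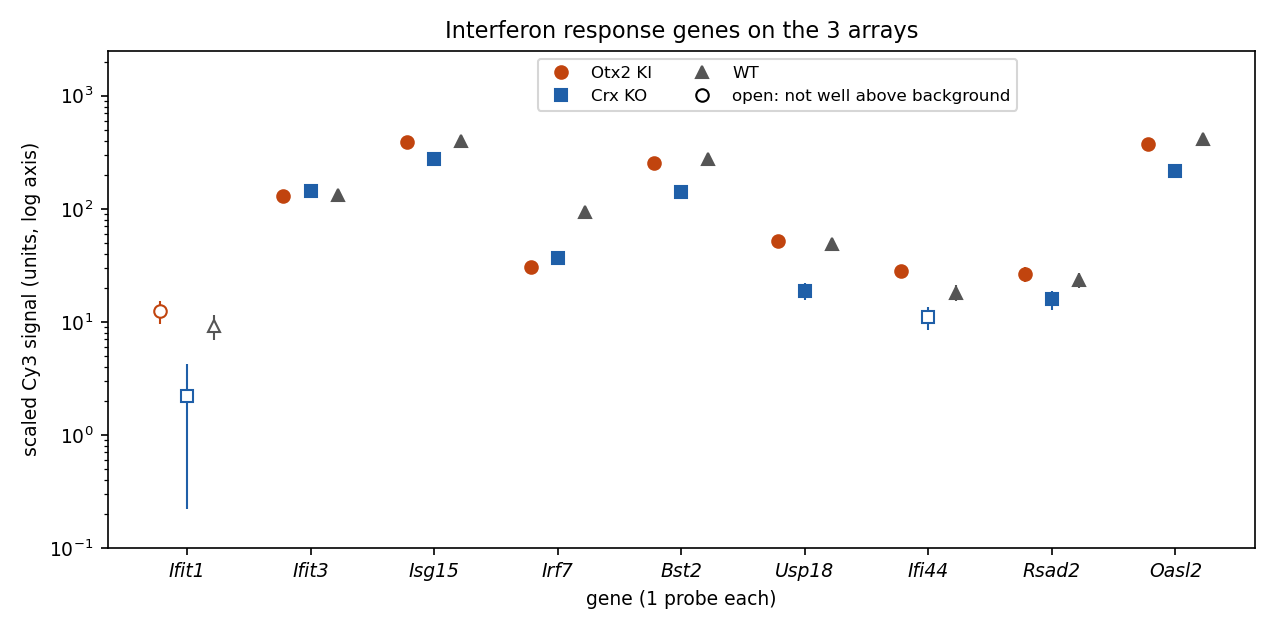
Scaled Cy3 signal of each interferon response gene on the Otx2 KI, Crx KO and WT arrays (log axis, 1 probe per gene, 1 array per genotype). Bars show the scanner software's error and open symbols mark signals not well above background. Crx KO lies lowest for Isg15, Bst2, Usp18, Rsad2 and Oasl2, Ifit3 is level, and Irf7 is high only on the WT array.

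The comparison of Crx KO with WT gave lower signals for most members. Of the 7 members with a measured difference, Irf7 and Usp18 were at least 2-fold lower, so 2 were called lower and none higher. Over all 16048 genes measured, 3.43% were called lower and 1.95% higher at that size. Among the 5462 genes in the members' range of signal, with a mean of 21.4 to 351 units, 4.72% were called lower. At 1.5-fold, a size added after the values had been seen, 4 of the 7 were lower (Irf7, Usp18, Bst2 and Oasl2), against 8.24% of all genes and 11.1% of genes in the same signal range. Below WT lay 6 of the 7, all but Ifit3, against 51.5% of all genes. The median difference of the 7 was -0.92, and -0.82 with Ifi44 added at its bound, against -0.01 over all genes. Members share RNA and array, so they are not replicates of the condition.

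The comparison of Otx2 KI with WT found a different picture. Irf7 was the only one of 8 measured members lower by 2-fold or more, where 2.53% of 15809 genes were called lower, and no member was higher, where 1.35% of genes were called higher. Among genes in the members' signal range, 3.17% were called lower. At 1.5-fold 1 member was higher, Ifi44, against 3.66% of all genes. The 7 members other than Irf7 lay between -0.14 and 0.64 on the log2 scale, and 6 of them, all but Ifi44, differed from WT by less than 1 error. The median was -0.03 over the 8 members and 0.03 over all genes.

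Otx2 KI set directly against Crx KO does not use the WT array. Of 7 members measured, 1 was higher by 2-fold or more, Usp18, and none was lower, where 0.677% of 15805 genes were called higher and 0.645% lower. With genes dim on 1 array taken at their bound, Ifi44 joined it, giving 2 of 8 members, against 0.895% of all genes. At 1.5-fold 4 of the 7 were higher, Usp18, Bst2, Oasl2 and Rsad2, against 2.44% of all genes and 4.36% of genes in the members' signal range, where 1.32% passed 2-fold. Above 0 lay 5 of the 7, against 59.7% of all genes. The median was 0.75 over the 7 members and 0.04 over all genes. Ranked over the 3 arrays, Crx KO was lowest for 5 of the 7 members well above background throughout, and Otx2 KI for the other 2, Ifit3 and Irf7. Crx KO was lowest for 37.9% of all 15742 such genes, Otx2 KI for 22.1% and WT for 40%.

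**Figure D3:**
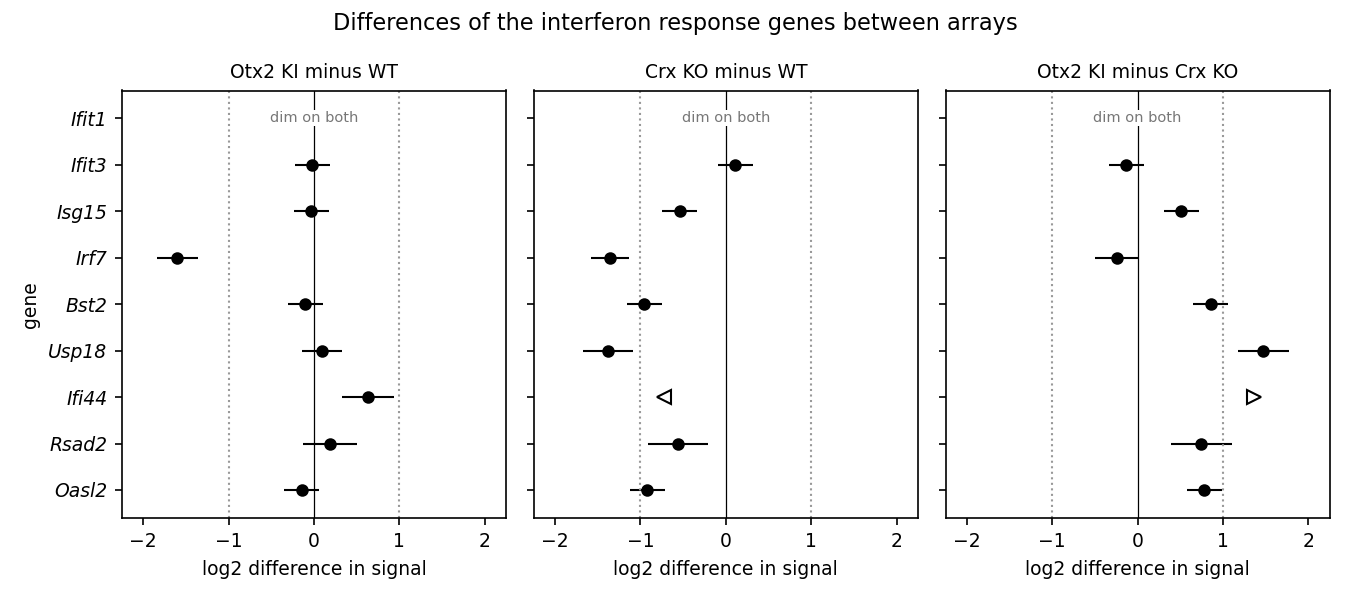
Log2 difference in signal of each interferon response gene for Otx2 KI minus WT, Crx KO minus WT and Otx2 KI minus Crx KO, with bars of 1 standard error of measurement. Dotted lines mark 2-fold, open triangles mark bounds and Ifit1 was dim throughout. Irf7 and Usp18 lie beyond the line for Crx KO minus WT, Irf7 does so for Otx2 KI minus WT, and Usp18 for Otx2 KI minus Crx KO.

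These calls changed with the way background was removed. With the normexp correction and an offset of 50 units, no member passed 2-fold in any comparison. Irf7 then differed by -0.76 for Otx2 KI minus WT and -0.65 for Crx KO minus WT, and Usp18 by -0.53 for Crx KO minus WT. The offset adds to every signal and is as large as the whole signal of Usp18, which shrinks its ratios by construction. With normexp and no offset, added after the values had been seen, the same members passed: Irf7 at -1.34 for Otx2 KI minus WT and -1.11 for Crx KO minus WT, and Usp18 at -1.25 for Crx KO minus WT. Bst2 and Oasl2, whose signals stood further above background, moved less, with Crx KO minus WT at -0.68 and -0.80 under the offset of 50 units. No called difference changed direction.

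**Figure D4:**
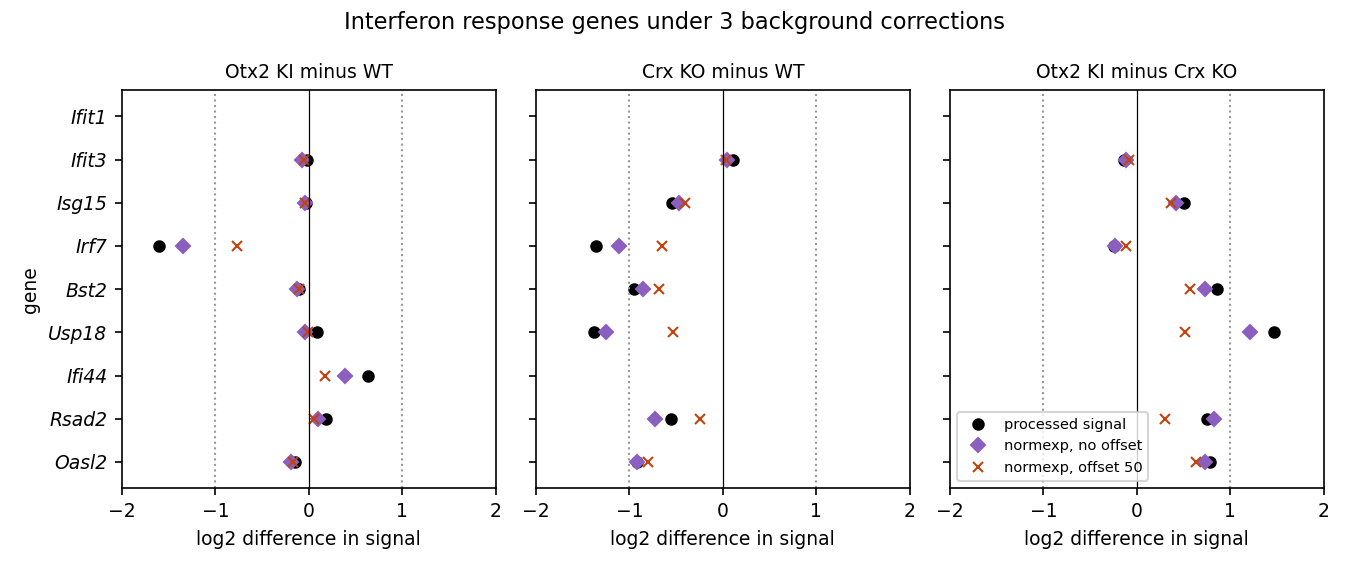
Log2 differences of the interferon response genes from the processed signal, from normexp with no offset and from normexp with an offset of 50 units, for the 3 pairs of arrays, with dotted lines at 2-fold. Irf7 and Usp18 move from -1.36 and -1.38 to -0.65 and -0.53 for Crx KO minus WT under the offset, while Oasl2 moves from -0.92 to -0.80.

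Other type I interferon-stimulated genes also lay mostly below WT in Crx KO. Of 38 measured among 47 with a probe, 5 passed 2-fold downward in Crx KO against WT and none upward, with 29 below 0 and a median of -0.15. Over all genes 3.43% were called lower in this comparison and 51.5% lay below 0. In Otx2 KI against WT none of 37 passed 2-fold in either direction and the median was -0.00. The chemokine Cxcl10 gave 13.1 units on the Otx2 KI array, not well above background, 12.9 on the Crx KO array and 52.8 on the WT array, at least 4.02-fold lower in Otx2 KI than in WT and lower by 2.03 on the log2 scale in Crx KO (log2 difference -2.03). Cxcl10 thus resembled Irf7 in being high on the WT array alone. Rtp4, a receptor-transporting protein with antiviral activity, gave 174 units on the Otx2 KI array, 59.9 on the Crx KO array and 176 on the WT array, level between Otx2 KI and WT. Oas1a, an oligoadenylate synthetase, gave 50.6 units on the Otx2 KI array, 16.7 on the Crx KO array and 43.1 on the WT array. Oasl1, the closest relative of Oasl2 on the list, gave 36.0 units on the Otx2 KI array, 15.3 on the Crx KO array and 35.1 on the WT array. The remaining gene was Lgals3bp, at 505, 270 and 586 units on the Otx2 KI, Crx KO and WT arrays, whose other probe differed less (-0.66 for Crx KO minus WT, against -1.12). Against Crx KO, Otx2 KI was higher by 2-fold or more for 3 of 37, Oas1a (1.60), Rtp4 (1.54) and Oasl1 (1.24), where 0.677% of all genes were called higher. With normexp and the offset of 50 units no call of this list was left: Crx KO minus WT was -0.52 for Cxcl10, -0.98 for Rtp4, -0.48 for Oas1a, -0.27 for Oasl1 and -0.83 for Lgals3bp, and Otx2 KI minus Crx KO was 0.49 for Oas1a, 0.94 for Rtp4 and 0.29 for Oasl1. With no offset 3 of the 5 stayed lower in Crx KO, while Oasl1 (-0.65) and Lgals3bp (-0.94) did not, and for Otx2 KI minus Crx KO 2 calls were left, without Oasl1 (0.67).

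The Ifit relatives Ifit2 and Ifit3b did not lie below WT in Crx KO. Ifit2 gave 112 units on the Otx2 KI array, 137 on the Crx KO array and 126 on the WT array, a difference of 0.13 ± 0.21 for Crx KO minus WT. Ifit3b gave 56.2, 66.3 and 48.7 units in the same order, a difference of 0.45 ± 0.23. At 1.5-fold 7 of the 38 were lower in Crx KO than in WT, against 8.24% of all genes. Ifi204 (-0.95) and Xaf1 (-0.77) joined the 5 named above. In Otx2 KI against WT the largest differences of the list were -0.55 for Isg20 and 0.50 for Parp12. Probes disagreed for Xaf1, whose brightest probe gave 140 units on the Otx2 KI array, 72.3 on the Crx KO array and 123 on the WT array. Another Xaf1 probe gave 22.2 units on the Otx2 KI array, 121 on the Crx KO array and 7.99 units, not well above background, on the WT array, which was at least 11.9-fold higher in Crx KO than in WT.

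Upstream of the members, few components of the pathway passed 2-fold. Ifnb1 and Ifng, which encode interferon beta and gamma, were not well above background on any array. Of 11 measured interferon ligand genes 1 was higher in Crx KO than in WT, where 1.95% of all genes were called higher. It was Ifna7, at 24.0 units on the Otx2 KI array, 28.3 on the Crx KO array and 12.6 on the WT array. Under the offset of 50 units its difference was 0.22. None of the receptor genes measured and none of 6 genes of the JAK-STAT pathway passed 2-fold in either mutant. Stat2 gave 1120 units on the Otx2 KI array, 1088 on the Crx KO array and 1522 on the WT array, and Irf9 stood at 777, 738 and 795 units in the same order. None of 9 negative regulators and none of the nucleic acid sensors and adaptors passed 2-fold in either mutant.

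Among the other interferon regulatory factors, Irf5, which drives inflammatory genes in myeloid cells, was much higher in both mutants. It gave 650 units on the Otx2 KI array and 760 on the Crx KO array, against 77.8 on the WT array, log2 differences of 3.06 ± 0.21 and 3.29 ± 0.21 that shared the single WT array. Under the offset of 50 units they were 2.26 and 2.47. Irf5 was the sole member of this list of 6 measured genes past 2-fold. Over all genes 1.35% were called higher for Otx2 KI minus WT and 1.95% for Crx KO minus WT.

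The interferon-gamma GTPases, which attack the vacuoles of intracellular pathogens, did not pass 2-fold. In Crx KO 13 of 14 measured lay below WT with a median of -0.27, and 5 were lower by 1.5-fold or more, against 51.5% and 8.24% of all genes. In Otx2 KI 13 of 15 lay below the same WT array, against 44.7% of all genes, with a median of -0.10. There 2 were lower by 1.5-fold or more, against 6.35% of all genes. The furthest in Crx KO was Irgm2, at 95.3 units on the Otx2 KI array, 54.5 on the Crx KO array and 103 on the WT array. Genes of class I antigen presentation had medians of 0.05 for Otx2 KI minus WT and -0.10 for Crx KO minus WT, and genes of class II antigen presentation of 0.10 and 0.06, with none past 2-fold.

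**Figure D5:**
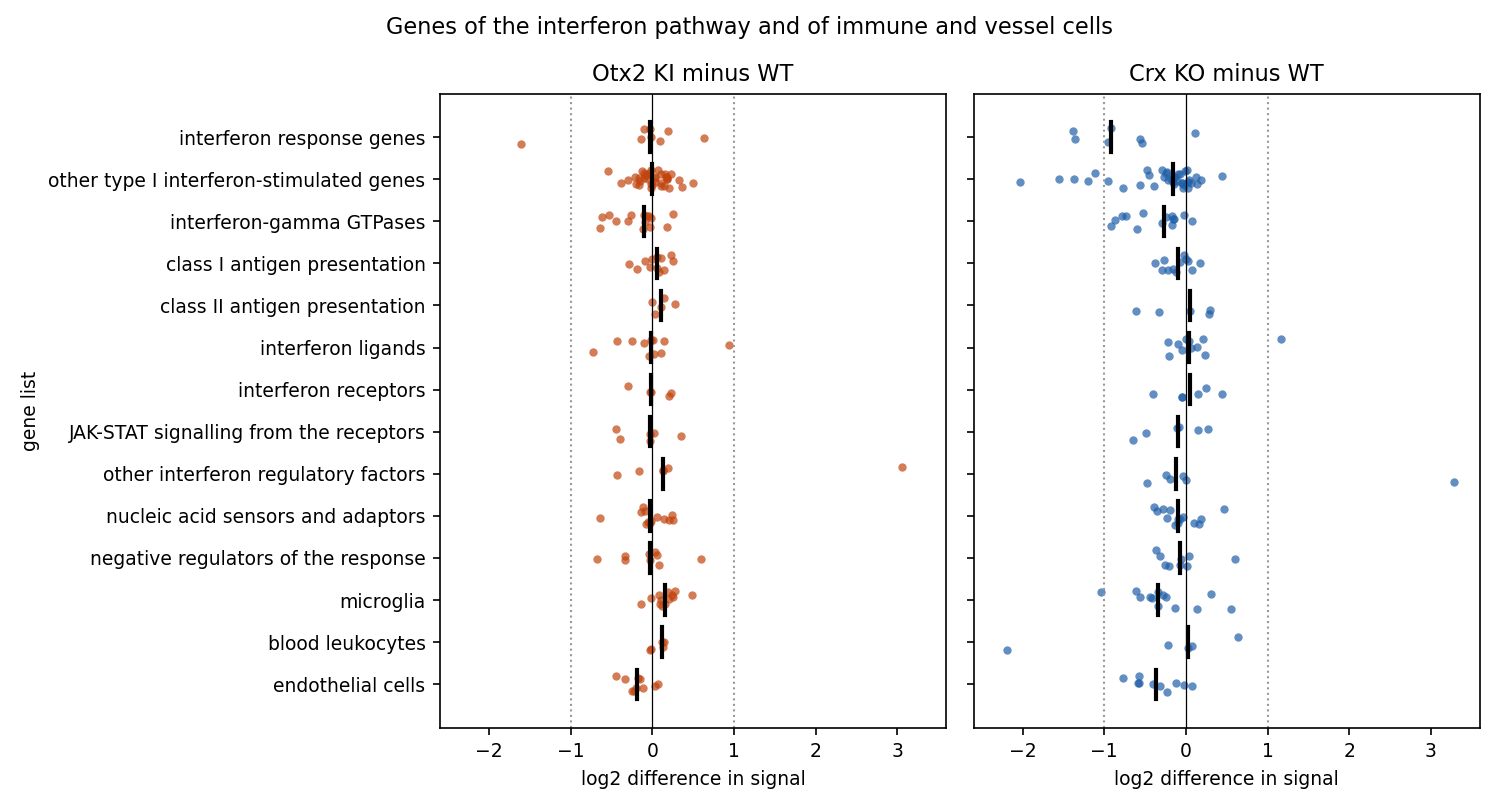
Log2 differences of single genes in the interferon pathway and in immune and vessel cells for Otx2 KI minus WT and Crx KO minus WT, with a bar at each list's median and dotted lines at 2-fold. The interferon response genes have the lowest median of the lists shown for Crx KO minus WT (-0.92), and Irf5 is the point beyond 3 in both panels. The rod list and the pigment epithelium and melanocyte list, not shown, had lower medians (-1.30 and -1.62).

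Markers of other cells moved beside the members. In whole retina, fewer cells of a type and less RNA per cell cannot be told apart. All 13 microglia markers were well above background on all 3 arrays. In Crx KO 10 lay below WT with a median of -0.34, against 51.5% of all genes. In Otx2 KI 11 lay above WT with a median of 0.16, against 55.3% of all genes. Otx2 KI minus Crx KO gave a median of 0.53, with 10 of 13 above 0, against 59.7% of all genes. The markers summed to 11930 units on the Otx2 KI array, 8868 on the Crx KO array and 11115 on the WT array once Itgam was left out. Itgam made up most of the sum otherwise, and with it the sums were 35466, 33488 and 27952 units in that order. Other Itgam probes gave only 31.1 and 64.9 units on the WT array. They lay below WT in both mutants, at -0.19 and -0.29 for Otx2 KI and -0.19 and -0.24 for Crx KO. Fcrls was the only marker past 2-fold, at 244 units on the Otx2 KI array, 110 on the Crx KO array and 227 on the WT array. Its Crx KO minus WT difference was -1.04, where 3.43% of all genes were called lower. Under normexp it was -0.73 with the offset and -0.95 with none, so the call was lost under both. The Otx2 KI minus Crx KO difference of Fcrls was 1.15, where 0.677% of all genes were called higher. Under normexp that difference was 0.75 with the offset and 0.98 with none, also short of 2-fold. Trem2 and Tyrobp gave 723 and 766 units on the Otx2 KI array, 414 and 434 on the Crx KO array, and 631 and 641 on the WT array. Csf1r, Cx3cr1 and Aif1 also lay below WT in Crx KO, while P2ry12 and Tmem119 lay above it (0.14 and 0.31). Other Csf1r probes disagreed in direction, at 0.14 and -0.41 for Crx KO minus WT. The part of microglia in the members' pattern was not tested.

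Other cell lists gave a mixed order. Rod markers passed 2-fold downward against WT for 6 of 8 in Otx2 KI and 7 of 8 in Crx KO, with medians of -1.81 and -1.30, where 2.53% and 3.43% of all genes were called lower. They summed to 154747 units on the Otx2 KI array, 162696 on the Crx KO array and 502303 on the WT array. All 4 measured red blood cell genes lay below the same WT array in both mutants, against 44.7% of all genes in Otx2 KI and 51.5% in Crx KO. Their medians were -0.67 in Otx2 KI and -0.60 in Crx KO, and the list summed to 32977, 35389 and 52213 units on the Otx2 KI, Crx KO and WT arrays. Of 5 measured genes of reactive glia, Serpina3n gave 13.9 units on the Otx2 KI array, 140 on the Crx KO array and 13.9 on the WT array, higher in Crx KO by 3.34 on the log2 scale and by 1.46 with normexp and the offset. Lcn2 was lower in both mutants, at 65.6 units on the Otx2 KI array and 72.6 on the Crx KO array, against 283 on the WT array, and passed 2-fold under the offset too (-1.35 and -1.33). The reactive glia list summed to 10362, 9094 and 11430 units on the Otx2 KI, Crx KO and WT arrays, most of it from Vim. Without Vim it summed to 1115, 1188 and 1264 units in the same order. Gfap lay above WT by 0.27 in Otx2 KI and 0.53 in Crx KO, short of 2-fold, and its other probes lay above WT too. In each mutant 2 of the 5 measured genes lay above WT and 3 below. Of 12 leukocyte genes with a probe, 4 were well above background on all 3 arrays and 5 on none, and Ptprc, which all leukocytes carry, was just above background on the Crx KO array alone at 13.5 units. Without Siglech, which made up most of the sum, they summed to 1513 units on the Otx2 KI array, 1356 on the Crx KO array and 1445 on the WT array. Another Siglech probe gave only 116, 109 and 110 units in the same order. S100a9, a protein of neutrophils, gave 55.7 units on the Otx2 KI array, 11.0 on the Crx KO array and 50.2 on the WT array, the order of Usp18. Its Crx KO minus WT difference of -2.19 was -0.65 with normexp and the offset of 50 units, short of 2-fold, and -1.46 with no offset. All 10 endothelial markers were well above background, with medians of -0.18 for Otx2 KI and -0.36 for Crx KO against WT, and they summed to 25539, 23940 and 26658 units on the Otx2 KI, Crx KO and WT arrays. Of pigment epithelium and melanocyte genes, 2 of 11 measured passed 2-fold downward in Otx2 KI and 8 of 10 in Crx KO, each against WT, where 2.53% and 3.43% of all genes were called lower. The pigment cell counts were 1 and 6 with normexp and the offset of 50 units, and 1 and 7 with no offset. These genes summed to 13249 units on the Otx2 KI array, 8805 on the Crx KO array and 25624 on the WT array. Of lens genes, 5 of 12 measured passed 2-fold upward in Otx2 KI against WT and 6 of 11 in Otx2 KI against Crx KO, where 1.35% and 0.677% of all genes were called higher. With normexp and the offset of 50 units these counts were 1 and 2. None of 11 passed 2-fold in Crx KO against WT, and 3 of them lay above WT. Lens genes summed to 1670 units on the Otx2 KI array, 768 on the Crx KO array and 982 on the WT array. The part of these cells in the members' pattern was not tested.

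The genes most like the members in shape were sought among 14900 genes well above background on all 3 arrays, with the members and genes known only by clone or predicted names left out. Likeness was the distance between a gene's log2 profile over the 3 arrays, centred on its own mean, and the median profile of the 7 members measured throughout. Nearest were Vwf, an endothelial clotting factor, at a distance of 0.0766, then Ggt1, Sfrp1, Tgtp2 and Ddx4, at up to 0.0880. Vwf gave 1470 units on the Otx2 KI array, 932 on the Crx KO array and 1591 on the WT array. Tgtp2, an interferon-gamma GTPase, gave 51.7 units on the Otx2 KI array, 32.9 on the Crx KO array and 54.8 on the WT array. The members themselves lay at unequal distances, Oasl2 nearest at 0.132 with 55 genes closer and Irf7 farthest at 1.05 with 14055 genes closer. With 3 arrays many genes share any shape.

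Irf7 lies on chromosome 7, as does Crx. Among its 16 nearest measured neighbours in gene order, 8 on each side, 1 was lower by 2-fold or more in each mutant, the photoreceptor dopamine receptor gene Drd4, and none was higher. Over all genes 2.53% were called lower and 1.35% higher in Otx2 KI, and 3.43% lower and 1.95% higher in Crx KO. Drd4 gave 5512 units on the Otx2 KI array, 10914 on the Crx KO array and 30339 on the WT array. The 16 neighbours had medians of -0.15 for Otx2 KI and -0.21 for Crx KO against WT, against Irf7 differences of -1.60 and -1.36. The medians over all genes were 0.03 and -0.01. Neighbours were looked up after the values of Irf7 had been seen.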

How the data were processed

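Total RNA of dissected retinas was measured on 3 one-colour arrays, and groups were taken from the labels. The deposited intensity values are Cy3 spot signals that the authors obtained with Agilent Feature Extraction 12.0.3.1, per the file headers, already background-subtracted. The authors' value table was an alternative: it held the same signals times 1 constant per array (2.54 for Otx2 KI, 2.61 for Crx KO and 2.49 for WT), so it is linear and uncentred, with constants of unknown origin.

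Control spots and 126 to 136 outlier spots per array were left out. The log2 intensity deposited by the authors was reduced by each array's 75th percentile (564 units for Otx2 KI, 570 for Crx KO and 574 for WT). Accessions named 28331 probes (50.9%) through RefSeq GRCm38.p6, and each gene took its brightest probe. Genes well above background on both arrays were compared by size, at 2-fold. All 9 members were named, up to 3 genes per list and comparison with the largest difference, any list gene past 2-fold, and the 5 most alike genes. One list gene that this rule takes is not reported here. Other genes named (Ifit2, Ifit3b, Ifi204, Xaf1, Irf9, Ifnb1, Ifng, Csf1r, Cx3cr1, Aif1, P2ry12, Tmem119, Ptprc, Itgam and Drd4) were chosen after their values were seen. Members and lists were chosen with earlier results of these data known.

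The planned normexp correction called for mean spot signals, and median spot signals with median local backgrounds were used in their place. Computation used Python 3.11.15, numpy 2.4.6, pandas 2.3.3, R 4.3.3 and limma 3.58.1, and the steps were tested on simulated data. Alternatives covered background correction, scaling, the filter on dim probes, the choice of probe, outlier spots and the authors' table. The number of arrays limits the precision.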

Additional observations from a re-analysis of the deposited data

How the results depend on the processing

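Quantile normalization, centring on the median, the mean over a gene's probes, keeping outlier spots and the authors' table moved none of 22 member differences by more than their measurement error and left the counts of members called as reported. No called value turned its direction under any alternative. With normexp and an offset of 50 units, 8 of the 22 moved. Members called lower were then 0 for Otx2 KI minus WT and 0 for Crx KO minus WT, and members called higher 0 for Otx2 KI minus Crx KO. The members' medians were -0.53 for Crx KO minus WT and 0.37 for Otx2 KI minus Crx KO. Over all genes this setting called 130 higher for Otx2 KI minus WT, 182 higher and 328 lower for Crx KO minus WT, and 35 higher and 50 lower for Otx2 KI minus Crx KO. With no filter on dim probes, 498 genes were higher and 906 lower for Otx2 KI minus WT, 789 and 1075 for Crx KO minus WT, and 394 and 581 for Otx2 KI minus Crx KO, with 3 members higher in the last. For Crx KO minus WT 3 members were then lower, in a setting that also counts Ifit1, which was dim on every array. At 1.5-fold, chosen after seeing the data, 1 member was higher for Otx2 KI minus WT, 4 were lower for Crx KO minus WT and 4 higher for Otx2 KI minus Crx KO, and over all genes 578 were higher and 1004 lower, 805 and 1323, and 385 and 365 in the same order of comparisons. With genes dim on 1 array at their bound, also added later, 2 members were higher and 170 genes lower for Otx2 KI minus Crx KO. Normexp with no offset, added later, moved 2 of the 22. Signal over background limits Irf7, Usp18, Rsad2, Ifi44 and Ifit1. Leaving out a replicate could not be done with 1 array per genotype. No paired analysis was possible because the labels give 1 array per genotype.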
